A study of Mus musculus with 12 samples.

Results

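Foxf1, Tbx4, Tbx5, Tcf21, Gli1, Hhip, Fgf10, Twist1, Prrx1 and Meox2 are 10 regulators of lung and airway mesenchyme, the connective tissue that lies around the airway tube. They were taken by symbol from the 31053 genes of the count tables, and all 10 were found. Their transcripts were counted in single cells of tracheal allografts and of native tracheas, with spleen as a further tissue. Cells with 10 or more transcripts of the matrix genes Col1a1, Col1a2, Col3a1 and Dcn together and none of the leukocyte gene Ptprc are called collagen-gated here. The gate held 49 of 3865 allograft cells, 904 of 4116 native cells and 0 of 4559 spleen cells.

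The study deposited 10x Chromium 3' single-cell libraries for 12 mouse samples, 4 each from tracheal allograft, native trachea and spleen, and its title concerns mononuclear phagocytes and fibrosis in obliterans bronchiolitis after transplantation. The labels say mesenchymal progenitors for both tracheal sources and splenocytes for the third, and they state no strain, sex, age, time after grafting, treatment or sort. Each source came as 1 matrix whose barcodes do not tell its samples apart, so each was treated as 1 pooled library. Differences between libraries were therefore not tested, no p-value is given, and every interval is a 95% interval for counting error only.

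During development, mesenchyme and epithelium of the airway signal to each other. Epithelial hedgehog ligands act on mesenchymal receptors and, through Gli factors, switch on genes that include Gli1, Hhip and Foxf1, while mesenchymal Fgf10 acts on epithelial Fgfr2 to drive budding. T-box, forkhead, bHLH and homeobox factors give this mesenchyme its regional and cell type identity, and several stay on in adult fibroblasts.

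The label of the tracheal cells was checked against markers first. Ptprc was detected in 87.7% of allograft cells and 63.3% of native cells, so most cells of both libraries carried a leukocyte gene. The libraries held 26503045 unique molecular identifiers (UMIs, 1 per captured transcript) for the allograft and 31415458 for native trachea, and collagen-gated cells had medians of 14026 UMIs in the allograft and 10820 UMIs in native trachea. The gated share was 1.27% of allograft cells (0.939 to 1.67, Clopper-Pearson) and 22.0% of native cells (20.7 to 23.3). All 9 further fibroblast genes checked, among them Pdgfra and Lum, were detected in the gated cells of both libraries. The 2 sets of gated cells were not of one makeup. Matrix genes of cartilage (Col2a1, Acan, Matn1, Matn3, Col9a1, Cnmd and Hapln1) summed to 6356 UMIs scaled to a set total of 1000000 (CPM) in allograft gated cells and 32.2 CPM in native gated cells, while Inmt and Ces1d, at 783.4 CPM together in native gated cells, were at 0 UMIs in allograft gated cells. A list of 8 macrophage genes summed to 437 CPM in allograft gated cells, with UMIs in 46 of 49, and to 162 CPM in native gated cells, against 14599 CPM and 13558 CPM in the Ptprc-positive cells of the allograft and native libraries. A list of 6 pericyte genes, which include Rgs5 and Cspg4, stood at 487.6 CPM in allograft gated cells and 48.2 CPM in native gated cells. The part of these cell types in the results below was not tested beyond the values given beside them.

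Over all cells, 9 of the 10 genes were 2-fold or more lower in the allograft library and 0 were 2-fold or more higher, beside 19.5% and 7.06% of the 16465 genes with 10 or more UMIs. The median log2 ratio of the 10 was -3.70, against 0.01 for all those genes. Gated cells were also a smaller share of the allograft library, and fewer mesenchymal cells and less RNA per cell cannot be told apart in them. Prrx1, at 442 allograft UMIs and 981 native UMIs, was the one gene that stayed within 2-fold.

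Within collagen-gated cells the picture divided. Tcf21, Hhip, Fgf10, Tbx4 and Foxf1 were 2-fold or more lower in the allograft, Prrx1 was 3.45-fold higher, and Twist1, Tbx5, Gli1 and Meox2 stayed within 2-fold. These 5 lower genes compare with 13.4% of the 12878 genes measured in the gate, and the 1 higher gene with 16.6%. The median log2 ratio of the 10 was -0.84, against 0.07 over all measured genes. In the 46 allograft and 63 native cells that had Ptprc UMIs as well as 10 or more collagen UMIs, which the gate leaves out, Hhip had 0 against 125 UMIs, Tcf21 1 against 69 UMIs and Prrx1 173 against 70 UMIs (allograft against native).

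**Figure D1:**
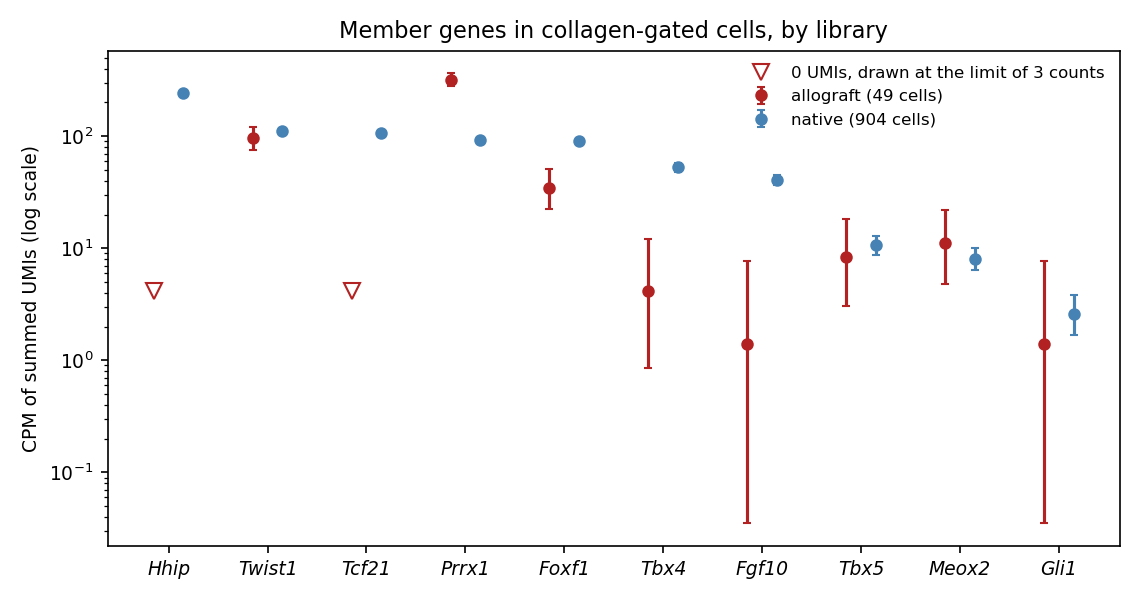
CPM of the summed UMIs of each gene (log axis) in 49 allograft (red) and 904 native (blue) collagen-gated cells; bars are exact Poisson 95% intervals, and open triangles mark 0 UMIs drawn at the limit that 3 counts allow. Hhip and Tcf21 stand at that limit of 4.18 CPM in the allograft, Prrx1 stands at 320.4 CPM in the allograft and 93.0 CPM in native trachea, and the intervals of Twist1, Tbx5, Meox2 and Gli1 overlap.

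Hhip (mm10 chr8:79965851-80058006, minus strand) encodes a membrane protein that binds hedgehog ligands and limits their range. Allograft gated cells had 0 Hhip UMIs in 49 cells, which allows a share of up to 7.25% (Clopper-Pearson). Native gated cells had 2353 UMIs in 450 of 904 cells. That is 0 CPM in the allograft, where 3 counts would be 4.18 CPM, and 243.8 CPM in native trachea (234.0 to 253.8), so the level was at least 58.3-fold lower in the allograft. UMIs of 3' tag libraries are counted once per transcript whatever its length, and on that scale Hhip had the highest level of the 10 genes in native gated cells. Its UMIs were unevenly spread: 454 native gated cells had none, 194 had 1 to 2, 190 had 3 to 9, and 66 had 10 or more, with a highest value of 60. The top 91 cells held 57.5% of its native UMIs, beside 56.4% for Fgf10 and 38.7% to 46.4% for Foxf1, Tbx4, Tcf21, Twist1 and Prrx1; Tbx5, Gli1 and Meox2 were found in fewer than 91 cells.

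Gli1 (chr10:127329882-127341974, minus strand), the zinc finger factor that hedgehog signalling both induces and acts through, had the lowest level of the 10 in native gated cells. It had 1 UMI in 49 allograft gated cells and 25 UMIs in 24 of 904 native gated cells, or 1.39 CPM (0.0353 to 7.76) and 2.59 CPM (1.68 to 3.82). The ratio of 0.791 had an interval of 0.0131 to 3.29, so a difference was not detectable at this depth.

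Foxf1 (chr8:121084386-121088144, plus strand), a forkhead factor of visceral mesoderm, had 25 UMIs in 14 of 49 allograft gated cells and 872 UMIs in 470 of 904 native gated cells. Its level was 34.8 CPM (22.5 to 51.4) in the allograft and 90.3 CPM (84.5 to 96.5) in native trachea, 2.54-fold lower in the allograft (1.75 to 4.03). The allograft UMIs sat mainly in cells with cartilage genes. Foxf1 was found in 12 of 17 allograft gated cells with 10 or more UMIs of the 7 cartilage genes (22 UMIs), in 0 of 16 that had 2 or more UMIs of Pi16 and Dpp4, and in 2 of 14 of the remaining gated cells (3 UMIs). In native trachea 72 of 136 Pi16/Dpp4 cells and 3 of 5 cartilage-gene cells had it. The Pi16/Dpp4 classes of the 2 libraries were not drawn alike. Native cells with 3 or more UMIs of Inmt and Ces1d were left out of it, and no allograft gated cell had these 2 genes. Pi16 or Dpp4 UMIs were in 650 of 904 native gated cells, and Foxf1 was in 287 of the 510 cells of the native Inmt/Ces1d class. Without the cartilage-gene cells, Foxf1 had 3 UMIs in 32 allograft cells and 869 UMIs in 899 native cells, 11.0-fold lower in the allograft (4.38 to 62.4). The feature Gm20388 overlaps Foxf1 on the same strand, and how reads in the overlap were assigned is not given in the sources used here.

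Fgf10 (chr13:118669791-118792115, plus strand), the mesenchymal growth factor of airway budding, had 1 UMI in 49 allograft gated cells and 392 UMIs in 262 of 904 native gated cells. The levels were 1.39 CPM (0.0353 to 7.76) in the allograft and 40.6 CPM (36.7 to 44.8) in native trachea, and the ratio with 0.5 UMI added to each sum was 19.5-fold lower in the allograft (5.20 to 1155). A further 5 Fgf10 UMIs lay in 2 of the 46 allograft cells with both Ptprc and collagen UMIs. With those cells counted, Fgf10 was 8.56-fold lower, on 6 allograft UMIs and 415 native UMIs.

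Tcf21 (chr10:22817281-22820174, minus strand), a bHLH factor of lung and other visceral mesenchyme, had 0 UMIs in 49 allograft gated cells and 1028 UMIs in 478 of 904 native gated cells. Against 106.5 CPM (100.1 to 113.2) in native trachea, its level was at least 25.5-fold lower in the allograft. It was present in more native gated cells than any other of the 10 genes but Twist1.

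Tbx4 (chr11:85886422-85916097, plus strand) and Tbx5 (chr5:119832668-119885219, plus strand) are paired T-box factors of the lung bud mesenchyme. Tbx4 had 3 UMIs in 3 of 49 allograft gated cells, or 4.18 CPM (0.862 to 12.2), and 509 UMIs in 341 of 904 native gated cells, or 52.7 CPM (48.3 to 57.5). The ratio was 10.8-fold lower in the allograft (4.29 to 61.4). All 3 allograft Tbx4 UMIs were in cartilage-gene cells, and without that class its level was at least 7.53-fold lower. Tbx5 had 6 UMIs in 6 allograft gated cells and 103 UMIs in 87 native gated cells, 8.36 CPM (3.07 to 18.2) and 10.7 CPM (8.71 to 12.9), a ratio of 0.844 (0.281 to 1.76). Of the 6 allograft Tbx5 UMIs, 4 were in cartilage-gene cells. Whether the ratios of Tbx4 and Tbx5 differ was not tested.

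Prrx1 (chr1:163245119-163313710, minus strand), a paired-related homeobox factor of limb and craniofacial mesenchyme, had 230 UMIs in 45 of 49 allograft gated cells and 898 UMIs in 448 of 904 native gated cells. The levels were 320.4 CPM (280.3 to 364.6) in the allograft and 93.0 CPM (87.1 to 99.3) in native trachea, 3.45-fold higher in the allograft (2.97 to 3.98). The higher level was not carried by a few cells: 21 allograft gated cells had 3 to 9 UMIs and 8 had 10 or more, and the top 5 cells held 23.0% of the UMIs. It was also found across the allograft classes, in 14 of 17 cartilage-gene cells, 15 of 16 Pi16/Dpp4 cells, 14 of 14 remaining cells and 2 of 2 contractile cells. Without the cartilage-gene class the ratio was 3.79 (3.15 to 4.50), and with each cell thinned to 2000 UMIs its log2 was 1.27, against 1.79 with all UMIs. Gm26523 and Gm37644 overlap Prrx1 on the same strand.

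Twist1 (chr12:33957671-33959829, plus strand), a bHLH factor of mesoderm and neural crest, had 69 UMIs in 31 of 49 allograft gated cells and 1077 UMIs in 539 of 904 native gated cells. Its level was 96.1 CPM (74.8 to 121.6) in the allograft and 111.6 CPM (105.0 to 118.5) in native trachea, a ratio of 0.867 whose interval (0.665 to 1.10) held 1. A single allograft cell held 15 of the 69 UMIs. By class, 40 of the allograft UMIs were in 10 of 16 Pi16/Dpp4 cells, 12 in 11 of 17 cartilage-gene cells and 16 in 9 of 14 remaining cells.

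Meox2 (chr12:37108540-37179534, plus strand), a homeobox factor of somites and of vascular endothelium, had 8 UMIs in 7 of 49 allograft gated cells and 78 UMIs in 61 of 904 native gated cells. The levels were 11.1 CPM (4.81 to 22.0) in the allograft and 8.08 CPM (6.39 to 10.1) in native trachea, a ratio of 1.46 (0.575 to 2.85). In the allograft, 6 of 16 Pi16/Dpp4 cells had it and 0 of 17 cartilage-gene cells did. Outside the gate Meox2 was found in 3 of 4 allograft and 3 of 21 native cells with 3 or more UMIs of Pecam1, Cdh5, Kdr and Egfl7, genes of endothelium. These endothelial-gene cells had 157 CPM (51.0 to 367) of Meox2 in the allograft and 44.0 CPM (12.0 to 112.7) in native trachea, both above the gated level. Gm48617 overlaps Meox2 on the same strand.

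The order of levels in native gated cells was Hhip, Twist1, Tcf21, Prrx1, Foxf1, Tbx4, Fgf10, Tbx5, Meox2 and Gli1. The counting intervals of the neighbours Twist1 and Tcf21, of Prrx1 and Foxf1, and of Tbx5 and Meox2 overlapped, and those of the other neighbouring pairs did not. In allograft gated cells the order began with Prrx1, Twist1 and Foxf1, and from Meox2 downwards the intervals of neighbours overlapped.

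Promoter sequences are shown for the genes at the 2 ends of the comparison: Hhip, Tcf21 and Fgf10, with 0, 0 and 1 UMIs in allograft gated cells, and Prrx1, with 230. Each window covers 250 bases before and 50 bases after the RefSeq start in build GRCm38.p6, written 5′ to 3′ on the strand of the gene, and capitals mark a match to a searched motif. The windows are chr8:80057959-80058258 (minus strand) for Hhip, chr10:22820094-22820393 (minus strand) for Tcf21, chr13:118714449-118714748 (plus strand) for Fgf10 and chr1:163313601-163313900 (minus strand) for Prrx1. The Fgf10 window lies inside the gene span given above, which begins at 118669791, so its RefSeq start is not the 5′ end of that span.
Hhip: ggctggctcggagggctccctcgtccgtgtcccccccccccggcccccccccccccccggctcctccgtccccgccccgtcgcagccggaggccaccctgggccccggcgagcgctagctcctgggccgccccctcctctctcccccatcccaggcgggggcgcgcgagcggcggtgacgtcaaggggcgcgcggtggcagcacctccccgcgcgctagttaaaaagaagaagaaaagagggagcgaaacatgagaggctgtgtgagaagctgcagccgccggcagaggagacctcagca
Tcf21: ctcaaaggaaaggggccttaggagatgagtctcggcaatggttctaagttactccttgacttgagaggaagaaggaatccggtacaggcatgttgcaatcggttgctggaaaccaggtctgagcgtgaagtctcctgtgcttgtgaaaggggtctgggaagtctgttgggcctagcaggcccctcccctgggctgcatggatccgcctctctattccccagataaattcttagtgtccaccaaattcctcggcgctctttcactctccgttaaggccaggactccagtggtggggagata
Fgf10: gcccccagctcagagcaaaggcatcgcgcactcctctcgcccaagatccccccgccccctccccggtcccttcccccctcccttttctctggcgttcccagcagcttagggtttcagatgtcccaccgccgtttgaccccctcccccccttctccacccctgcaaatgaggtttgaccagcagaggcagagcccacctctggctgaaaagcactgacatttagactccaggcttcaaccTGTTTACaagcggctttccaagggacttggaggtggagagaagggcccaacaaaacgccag
Prrx1: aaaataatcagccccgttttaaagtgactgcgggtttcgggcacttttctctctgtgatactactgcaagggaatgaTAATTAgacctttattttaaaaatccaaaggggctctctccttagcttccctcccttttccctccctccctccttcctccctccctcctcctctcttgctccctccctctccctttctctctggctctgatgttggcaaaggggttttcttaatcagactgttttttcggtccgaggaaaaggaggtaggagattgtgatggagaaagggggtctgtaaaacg
RefSeq windows were at hand for 7 of the 10 genes, these 4 and Tbx4, Twist1 and Meox2. Both strands were searched for GACCACCCA (the GLI motif), TGTTTAC (forkhead), AGGTGTGA (T-box) and TAATTA (homeobox). The forkhead letters were found in 1 of the 7 windows, that of Fgf10, and in 3.65% of 32851 windows of all genes. Their first base lay 11 bases before the RefSeq start of Fgf10. The homeobox letters were found in 1 of the 7, that of Prrx1, 173 bases before the start, and in 5.29% of all windows. The GLI letters were in 0 of 7 and 0.253% of all windows, and the T-box letters in 0 of 7 and 1.28%. The Hhip window was 73.7% G and C with 30 CpG dinucleotides, the Tcf21 window 53.3% with 8, the Fgf10 window 60.7% with 10 and the Prrx1 window 47.7% with 6, against medians of 52.7% and 7 over all windows. The windows of Hhip, Tcf21 and Fgf10 held no searched motif in common.

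Cell depth was then levelled by drawing 2000 UMIs from each gated cell, which left 48 allograft and 883 native cells. Prrx1 was in 31.3% of allograft cells (18.7 to 46.3) and 15.97% of native cells (13.6 to 18.6), where all UMIs had given 91.8% and 49.6%. Foxf1 was in 4.17% of allograft cells (0.509 to 14.3) and 16.4% of native cells (14.04 to 19.0), with intervals that just overlapped. Tbx4 was in 4.17% of allograft cells (0.509 to 14.3) and 11.8% of native cells (9.73 to 14.1). Fgf10 was in 0 of 48 allograft cells (0 to 7.40) and 7.70% of native cells (6.03 to 9.66). The intervals of Tbx4 and of Fgf10 also overlapped. Hhip was in 0 of 48 allograft cells and 27.2% of native cells (24.3 to 30.2), and Tcf21 in 0 of 48 and 18.01% (15.5 to 20.7). Twist1 was in 22.9% of allograft cells (12.0 to 37.3) and 20.3% of native cells (17.7 to 23.1), with overlapping intervals.

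Free RNA was gauged in Ptprc-positive cells with fewer than 10 collagen UMIs, which had medians of 5410.5 UMIs in the allograft and 6192 UMIs in native trachea. Of 3342 such allograft cells, Prrx1 was in 22, Twist1 in 20, Meox2 in 5 and every other of the 10 genes in 3 or fewer. Of 2541 such native cells, Hhip was in 22, Twist1 in 13, Foxf1 and Prrx1 in 12 each, Tcf21 in 10 and the others in 6 or fewer. After thinning, the highest of these shares was 0.283% for Prrx1 in the allograft, far under its 31.3% in gated cells. In the spleen library the 10 genes summed to 1 UMI, of Tbx5.

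**Figure D2:**
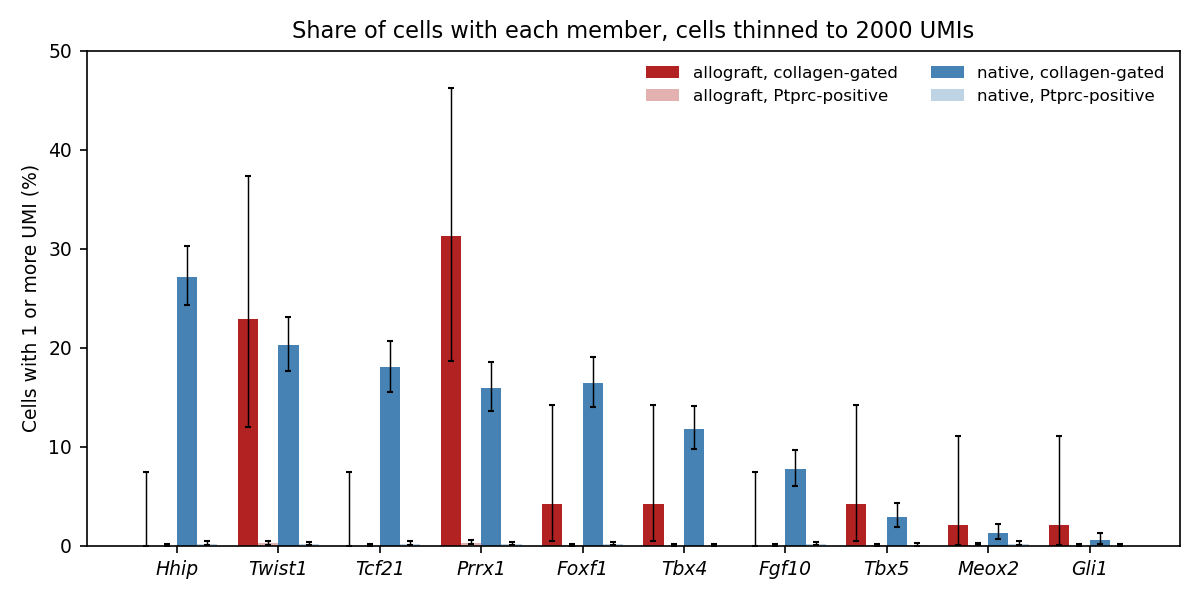
Percent of cells with 1 or more UMI of each gene after every cell was thinned to 2000 UMIs, for allograft (red) and native (blue) cells, with collagen-gated cells in full colour and Ptprc-positive cells with low collagen in pale colour; bars start at 0 and lines are Clopper-Pearson 95% intervals. Hhip, Tcf21 and Fgf10 are at 0% in allograft gated cells and at 27.2%, 18.01% and 7.70% in native gated cells, and no pale bar passes 0.283%. Between the gated cells of the libraries only the intervals of Hhip, Tcf21 and Prrx1 are apart.

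Combining the genes per cell, an allograft gated cell had a median of 2 of the 10 genes (0 to 5) and a native gated cell a median of 4 (0 to 9). Any of Tcf21, Hhip, Fgf10 and Tbx4 was present in 4 of 49 allograft gated cells, 8.16% (2.27 to 19.6), and in 756 of 904 native gated cells, 83.6% (81.1 to 86.0). After thinning to 2000 UMIs, 2 of 48 allograft cells and 448 of 883 native cells, 50.7%, had any of the 4. These 4 genes were grouped after their values were seen, so the shares describe how the low genes overlap in cells and are no separate evidence.

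Native gated cells were divided by marker sums into 510 cells with 3 or more UMIs of Inmt and Ces1d, 136 Pi16/Dpp4 cells, 85 contractile cells with 5 or more UMIs of Acta2, Myh11, Cnn1, Des and Actg2, 5 cartilage-gene cells and 168 remaining cells. The 4 larger classes held all 10 genes. Foxf1 ranged from 84.2 to 100.6 CPM over these 4 classes, Twist1 from 107.4 to 121.0 CPM, Tbx4 from 46.0 to 59.7 CPM and Fgf10 from 38.2 to 45.8 CPM, and for each of them the interval of every class's ratio to the remaining cells held 1. With the class thresholds doubled 2 of these ratios left 1, that of Fgf10 in Pi16/Dpp4 cells at 0.644 (0.463 to 0.884) and that of Foxf1 in contractile cells at 1.40 (1.01 to 1.90). The others varied more, Tbx5 and Gli1 aside, on the same CPM scale. Tcf21 stood at 121.4 CPM in Inmt/Ces1d cells and 69.5 CPM in the remaining cells, a ratio of 1.74 (1.39 to 2.21). Prrx1 stood at 79.9 CPM in Inmt/Ces1d cells, 60.7 CPM in contractile cells and 160.2 CPM in the remaining cells, a ratio of 0.498 (0.421 to 0.592) for Inmt/Ces1d cells over the remaining ones. Hhip stood at 233.5 CPM in Inmt/Ces1d cells and 356.4 CPM in the remaining cells, a ratio of 0.655 (0.588 to 0.731). Meox2 stood at 5.84 CPM in Inmt/Ces1d cells and 19.6 CPM in the remaining cells, a ratio of 0.296 (0.172 to 0.523). With the class thresholds doubled, the ratio of Inmt/Ces1d cells to the remaining ones moved to 1.33 (1.13 to 1.57) for Tcf21 and 0.754 (0.684 to 0.831) for Hhip. It was then 0.562 (0.481 to 0.658) for Prrx1 and 0.346 (0.196 to 0.600) for Meox2. The remaining cells were shallower, with a median of 6527 UMIs against 11653 in Inmt/Ces1d cells. Shares of cells with a UMI, not levelled for depth, ran against the CPM for Hhip and Prrx1. Hhip was in 55.3% of Inmt/Ces1d cells and 36.9% of the remaining cells, and Prrx1 in 53.3% and 42.3%. Cells with Hhip held a mean of 4.96 UMIs of it among Inmt/Ces1d cells and 7.03 among the remaining cells, where the highest cell held 57. The shares of Tcf21 and Meox2 ran as their CPM did.

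No allograft gated cell fell in the Inmt/Ces1d class, so the comparison was repeated without it, on 49 allograft and 394 native cells. Again 5 of the 10 genes were 2-fold or more lower in the allograft and 1 was higher, beside 12.1% and 13.7% of the 11367 genes measured there, and the median log2 ratio of the 10 was -0.999. Prrx1 was 2.80-fold higher in that comparison, Hhip at least 62.4-fold lower and Tcf21 at least 19.6-fold lower. Without the cartilage-gene class 5 were lower and 2 higher, Meox2 being the added one at a ratio of 2.44 (0.964 to 4.78), beside 12.0% and 18.4% of 12755 genes, and the median log2 ratio was -2.17.

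**Figure D3:**
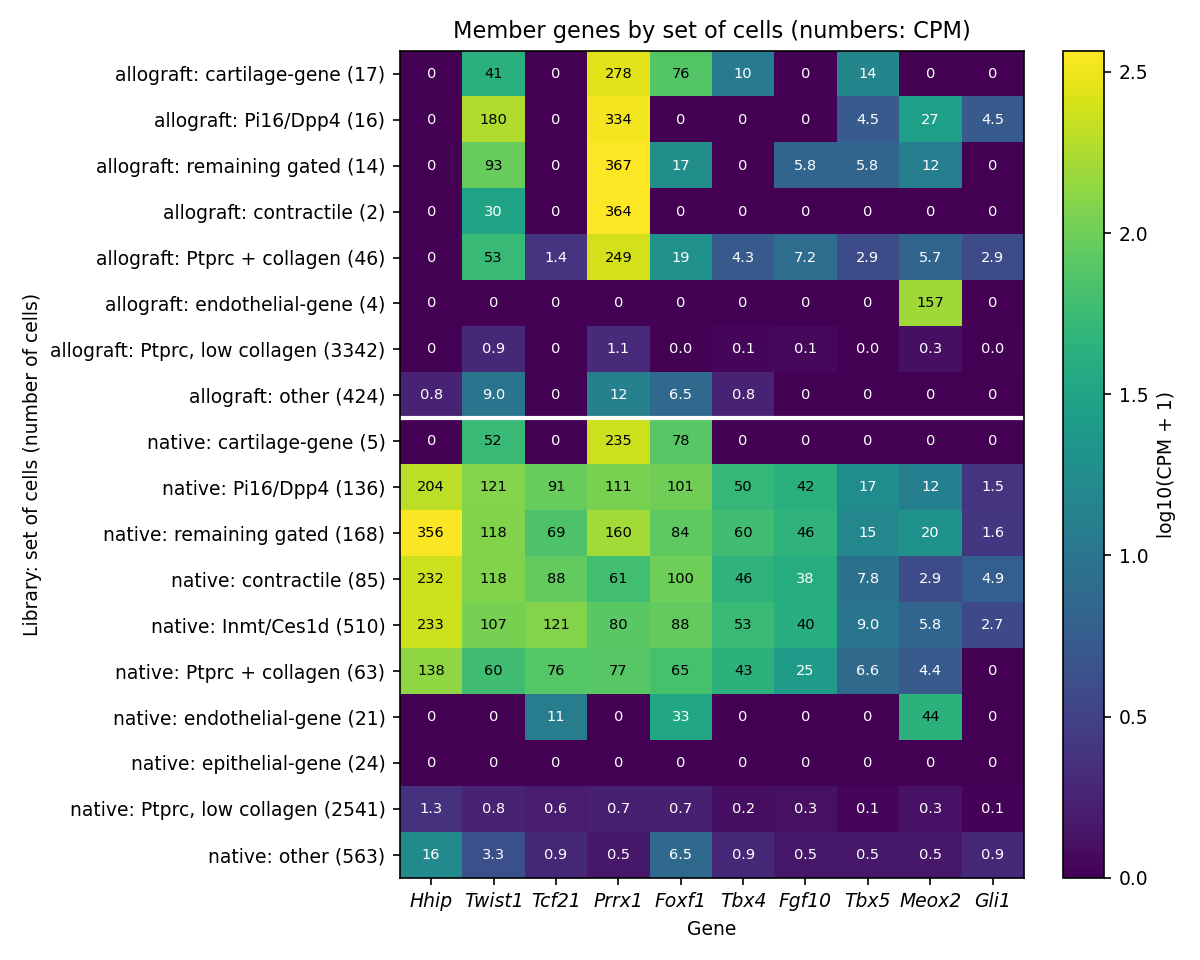
CPM of each gene (columns, printed in the cells and coloured as log10 of CPM + 1) in sets of cells of the allograft library (above the white line) and the native library (below it), with the number of cells of each set in brackets. Prrx1 is at 278 to 367 CPM in every allograft gated class and at 61 to 235 CPM in the native ones, while the Hhip and Tcf21 columns are at 0 in all allograft gated classes; sets of fewer than 50 cells rest on few UMIs.

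Co-detection was examined over the 45 pairs of the 10 genes in native gated cells. With all UMIs, 39 of 45 pairs were found together in more cells than the product of their shares. By median, cells with a gene were deeper for every gene but Tbx5, at 10799 UMIs with it and 10820 without. The gap was widest for Tcf21, with a median of 12151 UMIs in cells with it against 8860.5 without. After thinning, 24 of 45 pairs were above the product. Tbx4 and Hhip were above it both ways: with all UMIs 220 cells held both against 169.7 from the product, and Hhip was in 64.5% of cells with Tbx4 (59.2 to 69.6) and 40.9% of cells without it (36.8 to 45.04). After thinning, 41 cells held both against 28.3, and Hhip was in 39.4% of cells with Tbx4 (29.98 to 49.5) and 25.5% of cells without it (22.5 to 28.8). Hhip and Prrx1 were below the product both ways, with 211 cells against 223.0 for all UMIs and 31 against 38.3 after thinning. Foxf1 and Tcf21 were in 36 cells together against 26.1 after thinning. These are cells of 1 library and not replicates, so no test was made, and the pairs singled out were chosen after their values were seen.

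**Figure D4:**
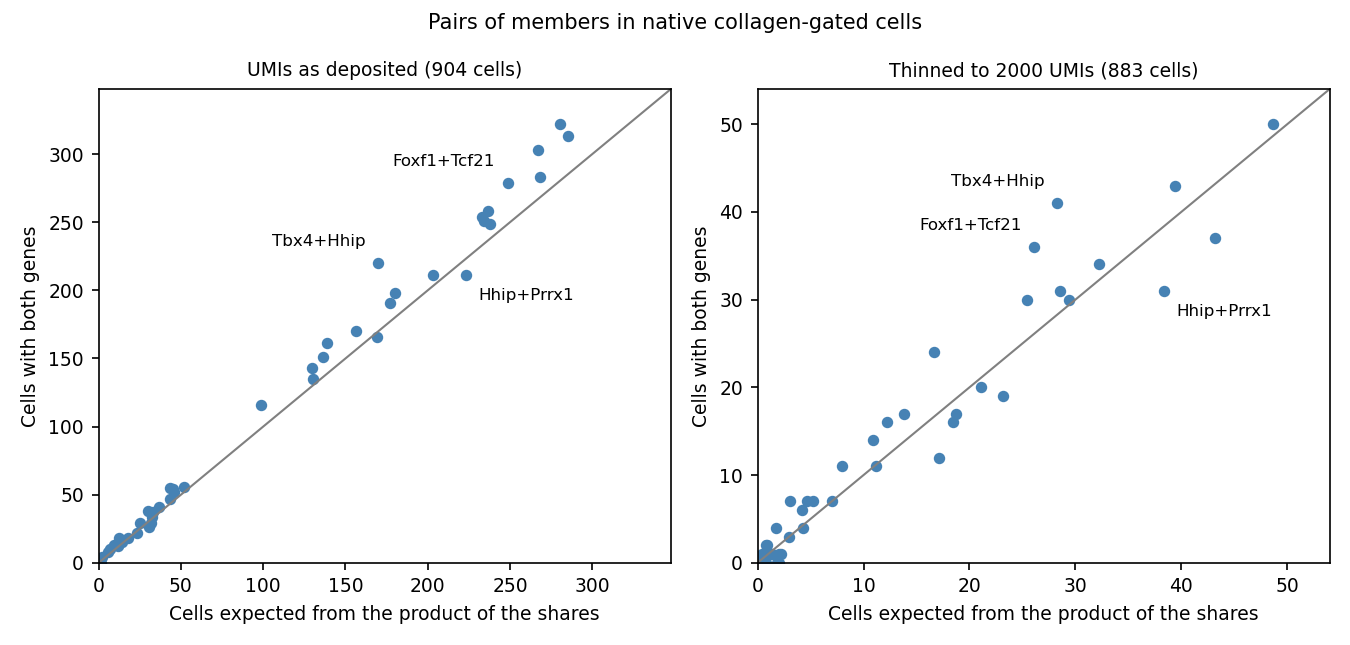
Number of native collagen-gated cells that held both genes of a pair (vertical axis) against the number given by the product of the 2 shares (horizontal axis), 1 point per pair for 45 pairs, with UMIs as deposited on the left and after thinning to 2000 UMIs on the right; the line marks equality. Tbx4 with Hhip lies above the line and Hhip with Prrx1 below it in both panels.

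The co-detection of these same cells can also be given as levels, by dividing native gated cells at Hhip itself. The division was chosen after the data were seen and draws on the same cells and UMIs as the pairs above. It is therefore no second result for Tbx4 or Prrx1. The 256 cells with 3 or more Hhip UMIs had 79.9 CPM of Tbx4 and 60.6 CPM of Prrx1, and the 454 cells with 0 Hhip UMIs had 37.3 CPM of Tbx4 and 125.5 CPM of Prrx1. The ratios were 2.14 (1.75 to 2.63) for Tbx4 and 0.484 (0.405 to 0.573) for Prrx1, with median depths of 10942 and 10351.5 UMIs. The share of cells with Prrx1 differed less than its CPM, at 47.7% with 3 or more Hhip UMIs and 52.2% with 0. For Tbx4 these shares were 56.25% and 26.7%. Foxf1, Tbx5, Gli1, Fgf10, Twist1, Tcf21 and Meox2 had ratios of 0.717 to 1.14 whose intervals held 1. Cartilage-gene cells were among the cells without Hhip, where Col2a1 had 112 UMIs against 1 in the other set.

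No other measured gene of the hedgehog pathway was 2-fold or more lower in allograft gated cells. Of 15 listed, 13 were measured in gated cells with 10 or more UMIs, of which 0 were lower by that much and 5 higher, beside 13.4% and 16.6% of all 12878 measured genes. The median log2 ratio of the 13 was 0.50, beside 0.07 for all measured genes. Gas1, a co-receptor, stood at 289.7 CPM in allograft gated cells and 93.2 CPM in native gated cells, 3.11-fold higher (2.66 to 3.62). Disp1, which releases the ligand, had 12 allograft UMIs and 46 native UMIs, 3.61-fold higher (1.69 to 6.73). Hhat, the acyltransferase of the ligand, had 7 allograft UMIs and 6 native UMIs, 15.5-fold higher (4.51 to 56.5). Ptch1, the main receptor and like Hhip a target of the pathway, had 11 allograft UMIs and 69 native UMIs, 2.22-fold higher (1.02 to 4.08), and is named because its value was seen. The ligand genes Shh and Ihh had 0 UMIs in the gated cells of both libraries. Without the cartilage-gene class 1 hedgehog gene, the transcription factor Gli2, was lower and the same 5 were higher, beside 12.0% and 18.4% of all measured genes, and the ratio of Ptch1 was 3.40 (1.4999 to 6.37).

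Of the 17 other genes of FGF signalling, all were measured in gated cells. With 0.5 UMI added, 4 were 2-fold or more lower in the allograft and 5 higher, beside 13.4% and 16.6% of all measured genes, and the median log2 ratio was 0.69. Of those 4, Fgf9 and Fgfr4 had 0 allograft UMIs and did not reach 2-fold against 3 counts. Spry1, an inhibitor that FGF signalling induces, had 10 allograft UMIs and 1779 native UMIs, 12.6-fold lower in the allograft (7.18 to 27.6), while Spry2, of the same family, had 65 and 319 UMIs, 2.76-fold higher (2.06 to 3.59). Spry4 was 2.51-fold lower (1.16 to 8.58). Fgf9 had 0 allograft UMIs and 64 native UMIs, at least 1.59-fold lower, and Fgfr4 had 0 and 27 UMIs, where the native level lies under what 3 allograft counts would be. The receptor Fgfr2, on which Fgf10 acts in epithelium, stood at 57.1 CPM in allograft gated cells and 17.8 CPM in native gated cells. That is 3.23-fold higher in the allograft (2.22 to 4.53). Many other genes, among them Ate1, Oat and Ctbp2, overlap the annotated span of Fgfr2 on the same strand. Fgfr3 was 8.42-fold higher (6.21 to 11.3) and the transcription factor gene Etv5 3.99-fold higher (2.29 to 6.45). The growth factor gene Fgf2, also named after its value was seen, was 2.26-fold higher (1.82 to 2.77). The values of these last 3 depended on the cartilage-gene cells: without them the ratios were 0.849 (0.203 to 1.99) for Fgfr3, 1.81 (0.521 to 4.06) for Etv5 and 1.48 (1.04 to 2.003) for Fgf2, while Fgfr2 was at 2.52 (1.42 to 4.01) and Spry1 10.5-fold lower. The counts without that class were again 4 lower and 5 higher, with Fgf7, Etv4 and Fgf1 past 2-fold in place of Fgfr3, Etv5 and Fgf2. Etv4 and Fgf1 rested there on 1 and 2 allograft UMIs, and the shares of all measured genes were 12.0% lower and 18.4% higher.

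A list of further mesenchymal transcription factors, which also held Zfp36, the gene of an RNA-binding protein, had 36 genes measured in gated cells. Of these 36, 10 were 2-fold or more lower in the allograft and 9 higher, beside 13.4% and 16.6% of all measured genes. Their median log2 ratio was -0.08. The lowest included relatives of the genes above. Foxf2, the paralog of Foxf1, had 0 allograft UMIs and 214 native UMIs, at least 5.31-fold lower. Tbx2, a T-box factor of lung mesenchyme, had 4 and 556 UMIs in allograft and native gated cells, 9.20-fold lower (4.02 to 38.1). Twist2 stood at 20.9 CPM in allograft gated cells and 98.8 CPM in native gated cells, 4.58-fold lower (2.85 to 8.49), and Barx1, a homeobox factor of foregut mesenchyme, was 3.56-fold lower (1.39 to 20.3).

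The highest of these factors was Tbx15, a T-box factor of skin and skeletal mesenchyme, with 33 UMIs in allograft gated cells and 4 UMIs in native gated cells, 46.0 CPM and 0.414 CPM, 100.1-fold higher (39.5 to 431). Sox9, the factor of cartilage, stood at 657.5 CPM in allograft gated cells and 97.9 CPM in native gated cells, 6.72-fold higher, Runx2, of bone and late cartilage, was 5.40-fold higher (3.14 to 8.78), and Ebf1 4.78-fold higher (3.98 to 5.70). Without the cartilage-gene class 7 genes of the list were lower and 10 higher, beside 12.0% and 18.4% of all measured genes. Tbx15 then had 29 allograft UMIs and 4 native UMIs, Sox9 was 3.86-fold higher (3.24 to 4.56) and Twist2 2.92-fold lower.

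**Figure D5:**
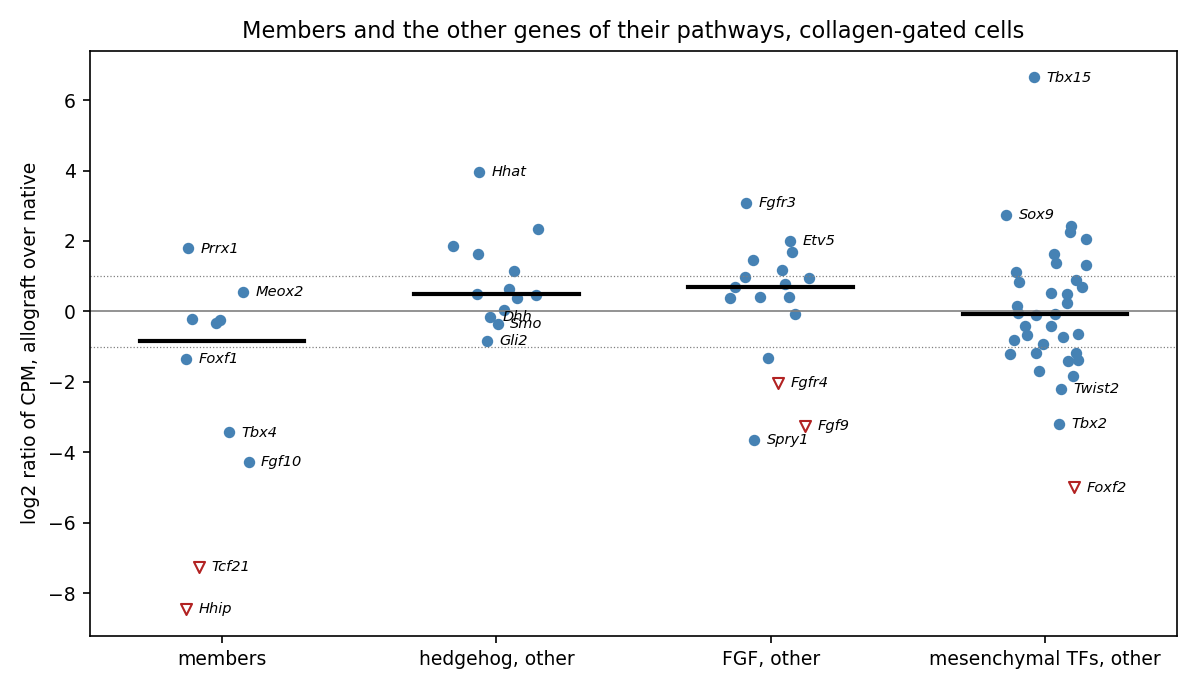
log2 ratio of CPM, allograft over native, in collagen-gated cells for the 10 genes (members) and for the measured genes of 3 lists; each point is a gene, black lines are medians, dotted lines mark 2-fold, and open triangles are genes with 0 allograft UMIs drawn at the ratio with 0.5 UMI added. The medians are -0.84 for the 10 genes, 0.50 for hedgehog, 0.69 for FGF and -0.08 for the transcription factor list with Zfp36, and Hhip and Tcf21 lie lowest.

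Genes with the most similar levels were sought over 11 sets of 50 or more cells drawn from the 3 libraries, by Pearson correlation of log2(CPM + 1) among 10471 genes. All 4 allograft gated classes were too small to enter, and the sets share 3 libraries and differ above all in whether cells were gated, so high values are common and are given as a description. For Foxf1 the nearest were Ghr, Parva and Hspg2 (r of 0.997, 0.996 and 0.996). For Tbx4 they were Cacna1g, Ecm2 and Cybrd1, for Tbx5 Mrgprf, 5930412G12Rik and Pappa2, for Tcf21 Cpz, Nav3 and Tspan11, and for Fgf10 Nox4, Ccdc42 and Bnc2, with r of 0.994 or more for each. For Hhip the nearest 2 were Rarres2 and Limch1. The nearest 3 were for Twist1 Yap1, P3h4 and Antxr1, for Prrx1 Adamts5, Sertad4 and Fbln7, and for Meox2 Frem1, Bhlhe22 and Tusc5. For Gli1, with the fewest UMIs, they were Pex5l, Grik4 and Gldn, at r of 0.979, 0.945 and 0.923.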

How the data were processed

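Unique molecular identifiers (UMIs) were deposited as raw counts per gene and barcode in 3 matrices, 1 per source, made with Cell Ranger 3.1.0 per the file headers on mm10 per the submitters' processing notes; the annotation is not given in the sources used here. No barcode names a sample, so the 4 samples of a source formed 1 library. The cell filter asked for 500 or more genes and at most 20% mitochondrial UMIs. Doublets marked by scrublet (scanpy 1.11.5; 0.651% of allograft, 0.908% of native and 0.412% of spleen barcodes) were removed, which is fewer than the expected 0.8% per 1000 barcodes, so doublets remain. The libraries share 4 barcodes (allograft and native), 4 (allograft and spleen) and 7 (native and spleen). Sums over cells were scaled to a set total of 1000000 (CPM). Ratios add 0.5 UMI to each sum and carry exact conditional binomial intervals, levels exact Poisson intervals and shares Clopper-Pearson intervals (scipy 1.17.1); a gene at 0 was set to 3 counts for a bound. Genes with 10 or more summed UMIs count as measured. Classes were assigned in the order cartilage, contractile, Inmt/Ces1d, Pi16/Dpp4, remaining. Named genes are the 10, up to 4 highest and 4 lowest past 2-fold per list, class markers and the 3 most similar genes; others are said to be chosen after their values were seen, and some genes that the rule picks are not reported here. The genes, lists and classes were chosen with earlier results of these data known. Positions are those of GENCODE M21 on mm10. The computation was tested on simulated sums with known folds and counting error only. There 12.4% of unchanged genes passed 2-fold in either direction in the collagen-gated comparison, and 2.16% over all cells. Alternatives were other cell filters, gates, scalings, priors, minimums, class thresholds and depths. Scripts ran in Python 3.11.15 with pandas 2.3.3, numpy 2.4.6 and matplotlib 3.10.9.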

Additional observations from a re-analysis of the deposited data

How the results depend on the processing

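Over all cells, the 7 alternatives left 9 genes lower and 0 higher in the allograft. In collagen-gated cells Prrx1 was higher and Tcf21, Hhip, Fgf10, Tbx4 and Foxf1 lower, each by 2-fold or more, under all 13 alternatives, but some sizes moved. The log2 ratio of Tbx4, -3.44, was -1.32 after thinning to 2000 UMIs, and that of Foxf1, -1.35, was -2.41 with Ptprc, Tyrobp and Fcer1g at 0 and -3.46 without the cartilage-gene class. Gli1, at -0.34 on 1 allograft UMI, was -1.81 without the highest cell of each gene, where 6 genes were lower in place of 5, and 2.33 after thinning. The median log2 ratio of the 10 genes, -0.84, was -1.69 without the highest cell of each gene, -1.45 with Ptprc, Tyrobp and Fcer1g at 0, and -2.17 without the cartilage-gene class. Those last 2 settings and thinning to 2000 UMIs gave 2 genes higher in place of 1, Meox2 being the added one. After thinning the Meox2 call rested on 1 allograft UMI and 11 native UMIs. Gli1, at 1 and 5 UMIs there, fell under the minimum of 10 and was not counted. The gated share of allograft cells, 1.27%, was 0.440% with Ptprc, Tyrobp and Fcer1g at 0. That of native cells, 22.0%, was 19.7% without a cell filter, 26.9% with a stricter one, 20.3% at a gate of 30 UMIs and 16.7% with Ptprc, Tyrobp and Fcer1g at 0. Doubling the class thresholds moved 6 of the 30 native class ratios by more than their counting error. Pairs of genes above the product of their shares numbered 39, and 24 after thinning. Thinning moved the share of cells with a gene outside its interval in 14 of 20 allograft and 20 of 20 native values. Scaling by the median of ratios moved all log2 ratios in the gate by 0.10 and changed no call. No paired analysis was possible because each source is 1 pooled matrix whose barcodes name no sample, and for the same reason no replicate could be left out. Depth limits Gli1, Tbx5 and Meox2, which had 1 to 8 UMIs in the 49 allograft gated cells, and spread between animals is unknown.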
